A study of Mus musculus with 24 samples.

Results

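Genes of the liver's extracellular matrix and of hepatic stellate cells were followed through 6 diet groups of ethanol-fed and pair-fed mice. The set has 36 named genes, listed by symbol for their known roles: collagens, matrix glycoproteins and proteoglycans, enzymes and inhibitors that remodel matrix, cytoskeletal genes of stellate cells, and growth factors with their receptors. The list was drawn up with earlier results of these data known, so its shares beside those of all genes describe and do not test. The RefSeq accession given for each probe was matched to the symbols of the set, and 35 of the 36 genes had at least 1 probe. They were covered by 56 of the 41174 probes on the array, and all 56 passed the filter on dim probes. Col6a3 had no matched probe and is not analysed here, and the probe used for Fn1, which encodes fibronectin, had too few unmarked arrays to be tested, so that 34 genes entered at least 1 comparison.

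Hepatic stellate cells lie between hepatocytes and the sinusoidal endothelium and store vitamin A in the healthy liver. In injured liver they can turn into contractile cells that carry smooth muscle actin and secrete fibrillar collagen, a change driven largely by transforming growth factor beta and platelet-derived growth factor. Matrix builds up where the making and crosslinking of collagen outpace its removal by metalloproteinases, which are in turn held back by tissue inhibitors of metalloproteinases. Much of the basement membrane in liver comes from endothelial cells, biliary cells and hepatocytes as well as from stellate cells.

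All samples were livers of male C57BL/6N mice with no engineered allele named in the labels. The group E8wMB was fed ethanol for 8 weeks and given multiple binges, 2 per week (n = 4). The group E8w1B had 8 weeks of ethanol and 1 binge (n = 5), and E8w had 8 weeks of ethanol without a binge (n = 5). The group P8w, the control of these 3, was pair-fed for 8 weeks (n = 4). The group E10d1B had 10 days of ethanol and 1 binge (n = 3) and is set against P10d, pair-fed for 10 days (n = 3). A binge was 5 g of ethanol per kg. The labels give no age of the animals, no number of binges for E8wMB and no time between the last binge and sampling. They also do not say that the replicates of a group are separate animals, so every p-value measures only the spread between these samples.

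Each liver RNA was labelled with Cy5 and hybridized with a reference RNA in Cy3, named in the labels as Ambion Mouse Assorted Total RNA although the same channel is also labelled as liver. Every value below is a log2 ratio of Cy5 over Cy3 on 1 array, and every difference is a difference of group means on that scale, where a difference of 1 is 2-fold. A gene was called changed in a comparison where its limma p-value, adjusted by Benjamini and Hochberg over all genes tested, was under 0.05. The ratio is relative to the other transcripts of the same liver, and in whole liver fewer cells of a type and less RNA per cell cannot be told apart.

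The median Cy5 signal ran from 95.5 to 247 units and the median Cy3 signal from 161.5 to 505 over the 24 arrays, 70.5% to 86.7% of spots were well above background in Cy5, and 0 spots were saturated. Alb, the hepatocyte gene for albumin, and Lrat and Reln, which mark stellate cells, were well above background on 24 of 24 arrays. The arrays were read in 3 scans, of which the first held P8w, E8w and E8w1B, the second P10d and E10d1B, and the third E8wMB alone. The Cy3 intensities, which come from 1 reference, correlated at a median of 0.983 between arrays within the first scan but at 0.915 between arrays of the third and the first scan. Scan and binge pattern therefore cannot be told apart in any comparison with E8wMB, and scan and feeding time cannot be told apart between P8w and P10d. E8w1B replicate 1 had the lowest weight of the 24 arrays in a fit that weighs arrays by their spread (0.377). It was the lowest of its group for 15 of the 32 matrix and stellate genes measured on all 5 arrays. Such a rank was not particular to it, since E8wMB replicate 2 was the lowest of its group for 14 of 29 and P8w replicate 3 for 13 of 28.

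Most genes of the set that were called after a single binge on top of 8 weeks of ethanol were higher. Against P8w, E8w1B had 9 of 33 tested genes called, all 9 higher, where 16.2% of all genes were called, 7.53% higher and 8.68% lower. Against E8w, it had 13 of 34 called, 10 higher and 3 lower, where 16.4% of all genes were called, 8.03% higher and 8.39% lower. After 10 days of ethanol and 1 binge, 4 of 32 were called against P10d, all 4 higher, beside 7.22% of all genes called, 4.32% higher and 2.9% lower. Ethanol for 8 weeks without a binge had 0 of 33 called against P8w, beside 0.153% of all genes (0.0638% higher and 0.0893% lower). The 3 comparisons of E8wMB had 5 of 32 genes called against P8w, 8 of 33 against E8w and 10 of 33 against E8w1B, beside 20.5%, 24.9% and 29.4% of all genes, so these shares of the set (15.6%, 24.2% and 30.3%) lay near or below the background. Of all genes, 8.02% were higher and 12.5% lower in E8wMB than in P8w, 10.2% and 14.7% against E8w, and 12% and 17.4% against E8w1B. The split of the E8wMB calls into higher and lower moved with the scaling. It was 2 and 3 against P8w, 5 and 3 against E8w and 2 and 8 against E8w1B, beside 0 and 4, 1 and 4, and 0 and 12 with median centring of the arrays, 6 and 3, 9 and 2, and 2 and 5 with the scanner software's own ratio, and 9 and 10, 10 and 8, and 5 and 14 in Cy5 alone. For E8w1B against E8w the split of 10 and 3 became 9 and 1 with median centring and 7 and 1 in Cy5 alone. Comparisons that share a group share its arrays and are not independent of each other.

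**Figure D1:**
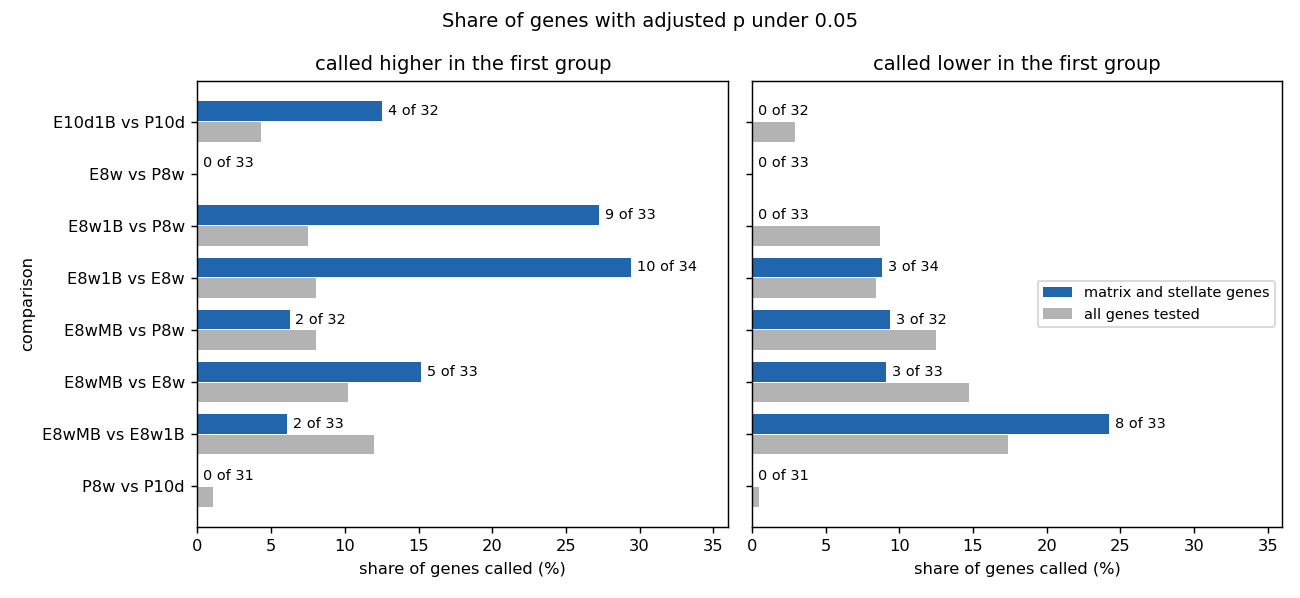
Share of genes with adjusted p under 0.05 (%, horizontal axis) in each of 8 comparisons (vertical axis), for the matrix and stellate genes and for all genes tested, with genes higher in the first group on the left and lower on the right. Among genes called higher, the set exceeds the background most in E8w1B against E8w, with 29.4% against 8.03%, and in E8w1B against P8w, with 27.3% against 7.53%. The set was chosen with earlier results of these data known, so this excess is a description and not a test.

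**Figure D2:**
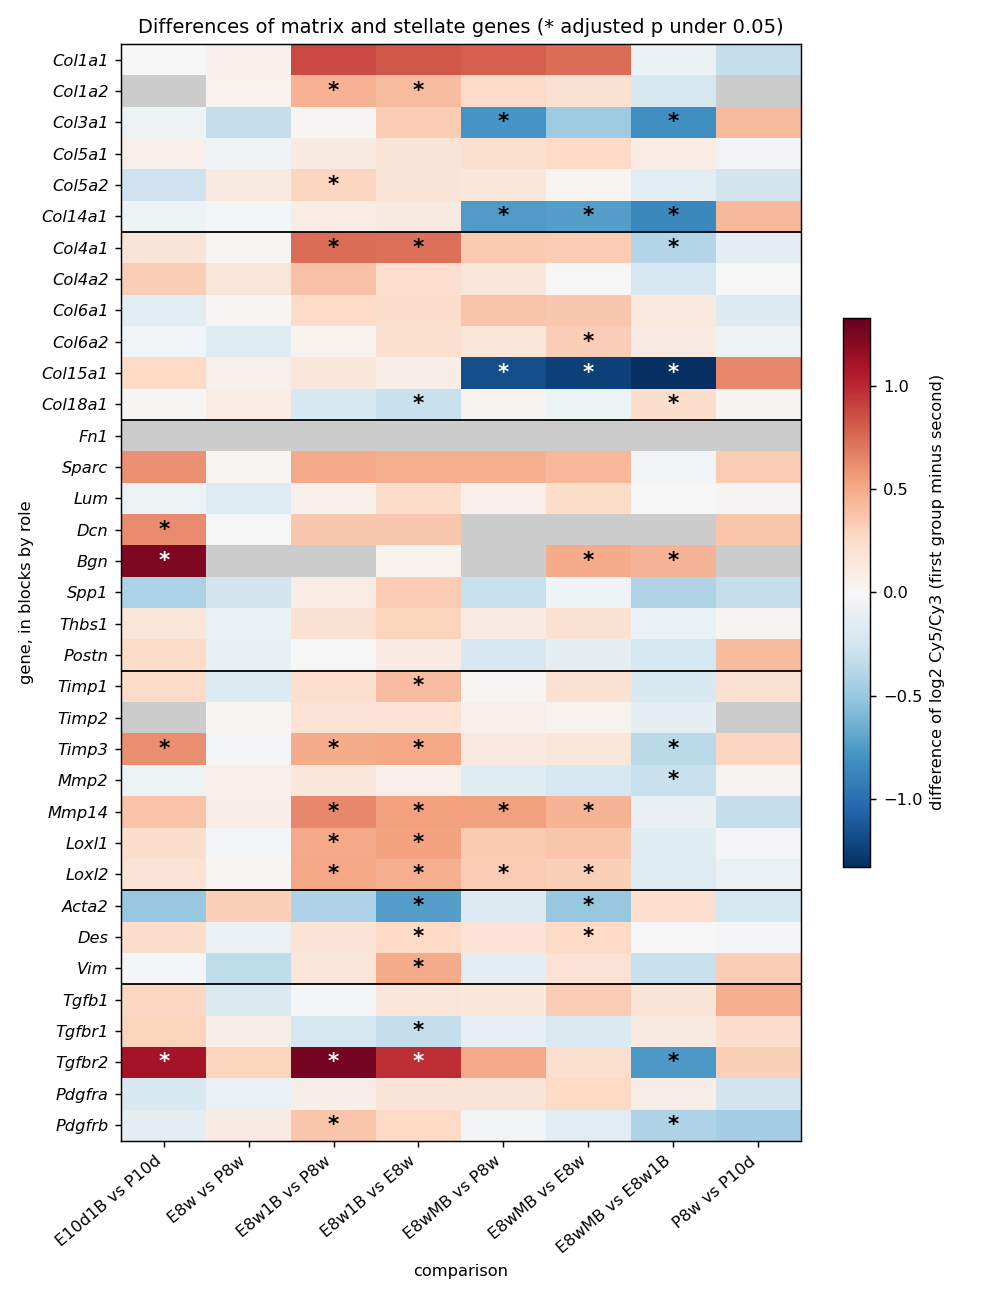
Difference of log2 Cy5/Cy3 (colour, first group minus second, red for higher) of 35 genes (rows, in blocks by role) in 8 comparisons (columns), with an asterisk at adjusted p under 0.05 and grey where a gene was not tested. Asterisks on red cells gather in the columns of E8w1B against P8w (9 genes) and against E8w (10 genes), and the lowest cells are those of Col15a1 in the 3 columns of E8wMB.

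In E8w1B livers the type II receptor of transforming growth factor beta rose the most of the set, together with a membrane-bound collagenase, basement membrane collagen IV, matrix crosslinking enzymes and 2 tissue inhibitors of metalloproteinases. The median difference over the 33 tested genes was 0.19 against P8w, beside 0.02 over all genes, and 29 of the 33 differences were positive, where 55.3% of all genes had a positive one. Against E8w the median was 0.25, beside 0.01 over all genes, and 31 of 34 were positive, beside 53.1% of all genes. Both comparisons lie within the first scan, 4 slides held E8w1B with P8w and 5 held E8w1B with E8w, and no gene of the set passed in the Cy3 channel there (adjusted p of 1).

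Tgfbr2 encodes the receptor that binds transforming growth factor beta and then phosphorylates Tgfbr1, and it lies at chr9:116087695-116175363 (GRCm38.p6). It read -0.16, 0.49, 0.65, 0.75 and 0.25 on the 5 arrays of E8w1B, against -0.34, -0.77, -0.46, -0.69 and -0.65 in E8w and -0.56, -0.91, -0.99 and -1.06 in P8w. Every E8w1B array stood above every E8w and every P8w array. The difference was 1.27 ± 0.17 (SE) against P8w, with a limma adjusted p of 1.58e-05, and 0.98 ± 0.16 against E8w, with 0.000131. It was positive on 4 of 4 slides that held E8w1B and P8w and on 5 of 5 slides that held E8w1B and E8w. The dimmer second probe of Tgfbr2 read 0.47 higher against P8w (adjusted p 0.0185), a smaller value than that of the probe used, and 0.35 higher against E8w, which did not pass (0.0689).

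Tgfbr1, the signalling partner of Tgfbr2, read lower in E8w1B, with -0.15, -0.06, -0.32, -0.05 and -0.29 against 0.01, 0.10, 0.21, 0.14 and 0.26 in E8w, and the groups did not overlap. The difference of -0.32 ± 0.08 (SE) passed (adjusted p 0.00678), and against P8w it was -0.24 and did not (0.0581). The second probe of Tgfbr1 read the other way, 0.23 higher against E8w (adjusted p 0.0537), and the mean of both probes differed by -0.04. Tgfbr1 also did not pass with median centring (-0.24, 0.397) or in Cy5 alone (-0.35, 0.0801). Pdgfrb, the beta receptor for platelet-derived growth factor and a surface marker of stellate cells, was 0.37 ± 0.13 higher against P8w at an adjusted p of 0.0496, with overlapping groups, and 0.0527 with slide in the fit. Tgfb1, the ligand, and Pdgfra did not pass in either comparison.

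Mmp14 encodes a membrane-anchored collagenase that also activates Mmp2 (chr14:54431598-54442456). Its values were 0.42, -0.12, 0.27, 0.20 and 0.37 in E8w1B, against -0.11, -0.24, -0.19, -0.55 and -0.50 in E8w and -0.38, -0.39, -0.47 and -0.40 in P8w. The E8w1B arrays did not overlap those of P8w, and only replicate 2 fell among those of E8w. The difference was 0.64 ± 0.11 (SE) against P8w (adjusted p 0.000248) and 0.54 ± 0.10 against E8w (0.000587). A brighter second probe, marked by the scanner software on 10 of 24 arrays, gave 0.45 (0.0206) and 0.35 (0.06) when marked spots were kept.

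Timp3, a metalloproteinase inhibitor that binds to the matrix (chr10:86300412-86349505), read -0.02, 0.92, 0.68, 0.48 and 0.67 in E8w1B, against -0.06, 0.05, 0.09, -0.12 and 0.21 in E8w and -0.01, 0.24, -0.08 and 0.07 in P8w. Replicate 1 of E8w1B lay within the range of both groups and the other 4 arrays above all of them. The difference was 0.49 ± 0.13 (SE) against P8w (adjusted p 0.00874) and 0.51 ± 0.12 against E8w (0.00417). Fitted on E8w1B and P8w alone, Timp3 did not pass (0.0846). Timp1, a secreted inhibitor of the same family, was 0.41 ± 0.10 higher in E8w1B than in E8w (0.00457), with 0.32, -0.16, -0.05, 0.28 and 0.13 against -0.11, -0.26, -0.35, -0.37 and -0.44, and overlapped by 1 array. Against P8w, Timp1 differed by 0.22 and did not pass (0.158).

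The stretches around the annotated starts of Tgfbr2, Timp3, Mmp14 and Col1a2, a chain of collagen I, are shown because these genes were called higher in at least 2 of the 3 comparisons of a single binge with no binge and have a window in the table. So does Col4a1, which is given with Col4a2 after them. Each is the RefSeq window on GRCm38.p6 from 250 bases before to 50 bases after the start, read along the gene. Capitals mark matches to CCAAT, the box bound by nuclear factor Y, or to its reverse complement ATTGG, in Tgfbr2, Mmp14 and Col1a2, and to GGGCGG, the box bound by Sp1, or to its reverse complement CCGCCC, in Timp3, Mmp14 and Col1a2. In Mmp14 a match to ATTGG overlaps one to GGGCGG.
Tgfbr2, chr9:116175314-116175613, minus strand: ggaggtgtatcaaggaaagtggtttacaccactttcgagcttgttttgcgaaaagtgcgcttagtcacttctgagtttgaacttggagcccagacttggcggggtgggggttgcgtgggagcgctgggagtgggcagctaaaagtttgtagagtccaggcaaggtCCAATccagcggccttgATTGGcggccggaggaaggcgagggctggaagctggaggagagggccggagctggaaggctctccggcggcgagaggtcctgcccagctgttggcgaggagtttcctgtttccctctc
Timp3, chr10:86300162-86300461, plus strand: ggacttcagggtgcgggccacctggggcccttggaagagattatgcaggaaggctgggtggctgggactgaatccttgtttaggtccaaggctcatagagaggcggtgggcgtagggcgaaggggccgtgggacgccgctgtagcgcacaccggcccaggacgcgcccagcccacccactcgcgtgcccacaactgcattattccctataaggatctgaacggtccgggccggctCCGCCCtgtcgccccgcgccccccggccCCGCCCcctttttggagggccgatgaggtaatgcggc
Mmp14, chr14:54431348-54431647, plus strand: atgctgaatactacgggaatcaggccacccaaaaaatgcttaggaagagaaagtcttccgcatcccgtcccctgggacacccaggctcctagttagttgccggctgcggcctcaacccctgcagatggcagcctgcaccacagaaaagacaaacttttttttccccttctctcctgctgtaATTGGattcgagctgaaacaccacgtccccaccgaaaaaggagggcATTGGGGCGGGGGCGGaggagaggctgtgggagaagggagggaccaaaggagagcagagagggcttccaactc
Col1a2, chr6:4505368-4505667, plus strand: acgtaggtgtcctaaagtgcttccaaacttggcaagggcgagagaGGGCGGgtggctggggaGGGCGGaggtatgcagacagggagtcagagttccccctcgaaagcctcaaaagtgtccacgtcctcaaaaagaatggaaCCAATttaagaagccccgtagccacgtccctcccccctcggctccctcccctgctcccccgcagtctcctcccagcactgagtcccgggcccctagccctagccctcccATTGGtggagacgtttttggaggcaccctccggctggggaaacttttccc
The CCAAT box was in 13 of 29 windows of the set (44.8%), and in 37.4% of all 32851 windows of this length. GGGCGG was in 15 of the 29 (51.7%), and in 35.7% of all windows. TATAAA was in 4 of 29 (13.6% in all windows), TGACTCA in 1 (5.2%) and CAGACA in 9 (21%), each counted on both strands and overlapping matches included. The 29 windows belong to the 24 genes of the set with a window in the table. These matches describe letters and say nothing of what binds there.

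Col4a1 and Col4a2 encode the chains of the main collagen IV of basement membranes and lie next to each other on opposite strands of chromosome 8, Col4a1 at chr8:11198423-11312889 on the minus strand and Col4a2 at chr8:11312805-11449287 on the plus strand. The annotated starts on which their windows are set, 11312826 for Col4a1 and 11312805 for Col4a2, are 21 bases apart. Each gene is read across this start of the other. The span given for Col4a1 reaches past its start used here, to 11312889. The shared stretch is given because both genes read higher in E8w1B. It is shown on the plus strand, with the 22 bases from one start to the other in capitals.
Col4a1 and Col4a2, chr8:11312777-11312854, plus strand: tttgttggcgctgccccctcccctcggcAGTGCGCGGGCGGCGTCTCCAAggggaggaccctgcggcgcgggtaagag
Col4a1 read 0.12, 0.10, 0.35, 0.13 and 0.59 in E8w1B, against -0.49, -0.43, -0.57 and -0.42 on 4 arrays of E8w and -0.33, -0.44 and -0.69 on 3 arrays of P8w. The groups did not overlap. It rose by 0.74 ± 0.13 (SE) against P8w (adjusted p 0.000513) and by 0.73 ± 0.12 against E8w (0.000242). Its second probe gave 1.00 (0.00792) and 1.26 (0.000602). The probe used for Col4a2 was marked on 7 of 24 arrays and differed by 0.39 against P8w, which did not pass (0.0526). A dimmer Col4a2 probe rose by 0.86 (0.000689) and by 0.78 against E8w (0.000868).

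Of 6 fibrillar and associated collagens, Col1a2 and Col5a2 were called higher in E8w1B against P8w, and Col1a2 alone against E8w. Col1a2 read -0.05, 0.61, 0.57, 0.35 and 0.32 in E8w1B, against 0.13, -0.07, -0.29, -0.03 and 0.00 in E8w and 0.13, -0.04, -0.34 and -0.17 in P8w. Again replicate 1 lay among the other groups and the other 4 above them. The difference was 0.47 ± 0.13 (SE) against P8w (adjusted p 0.018) and 0.41 ± 0.12 against E8w (0.0249). Col5a2, a chain of collagen V, was 0.29 ± 0.08 higher against P8w (0.0169), with 0.12, 0.26, 0.29, 0.05 and 0.17 against -0.08, -0.04, -0.15 and -0.18, and the groups did not overlap. Col1a1, the other chain of collagen I (chr11:94936224-94953042), had the widest spread in E8w1B, -1.14, 1.06, 0.80, 0.23 and 0.04, against -0.53, -0.77, -0.13, -0.84 and -0.87 in E8w and -0.01, -0.51, -1.37 and -0.84 in P8w. Its differences of 0.88 ± 0.31 against P8w and 0.83 ± 0.29 against E8w did not pass (0.0568 and 0.0577). Of its other 2 probes, 1 passed against P8w (0.68, 0.0369) and both against E8w (0.66 and 0.65, 0.04 and 0.035).

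On the probes used, whether Col1a1, Sparc and Dcn were called in E8w1B depended on its replicate 1. Without E8w1B replicate 1, Col1a1 was called at 1.22 (adjusted p 0.00148) against P8w and 1.16 (0.00134) against E8w. Sparc, a collagen-binding matricellular protein, was called at 0.68 (0.00199) and 0.65 (0.00172) without it, and not with it (0.50 and 0.47, 0.054 and 0.0518). Dcn, the collagen-binding proteoglycan decorin, was called as well, at 0.45 in both comparisons (0.0338 and 0.0321). In all, 12 of 33 genes were called against P8w without this array, all higher, where 14.7% of all genes were called, and 19 of 34 against E8w, 16 higher and 3 lower, where 15.1% were. These included all 9 and all 13 genes called with it. Other single arrays mattered too: Col1a1 and Sparc also passed against P8w without P8w replicate 1 (1.11, 0.0237, and 0.59, 0.0388), and Col1a1 against E8w without E8w replicate 3 (0.95, 0.0424). Col5a2 did not pass without P8w replicate 4 (0.059), and Col1a2 against P8w did not without P8w replicate 3 (0.078), P8w replicate 4 (0.0516) or E8w1B replicate 3 (0.0501). Against P8w, Col1a2 also did not pass with median centring (0.192), in Cy5 alone (0.35, 0.593) or fitted on these 2 groups only (0.0621), and Col5a2 did not with median centring (0.192) or in Cy5 alone (0.21, 0.301). With slide as a random block Col1a1 passed against P8w (0.91, 0.0374) and E8w (0.83, 0.0439), and Sparc did too (0.0338 and 0.0371). With slide as a fixed block Sparc passed against P8w (0.033) and not against E8w (0.0553), and Col1a1 passed in neither (0.0543 and 0.0875). With array weights both passed in both comparisons, Col1a1 at 0.0117 and 0.0206 and Sparc at 0.00881 and 0.0124. Against P8w the count of called genes was 6 without E8w1B replicate 3, P8w replicate 3 or P8w replicate 4.

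Both crosslinking enzymes of the set rose. Loxl2, which crosslinks collagen, read 0.13, 0.18, 0.07, -0.01 and 0.32 in E8w1B, against -0.55, -0.48, -0.19, -0.18 and -0.34 in E8w and -0.42, -0.29, -0.22 and -0.55 in P8w. The groups did not overlap, and the difference was 0.51 ± 0.10 (SE) against P8w (adjusted p 0.00139) and 0.49 ± 0.10 against E8w (0.00117). In the Cy5 channel alone Loxl2 did not pass in either (0.185 and 0.339). Loxl1, an enzyme of elastin crosslinking, read -0.40, 0.11, 0.70, 0.05 and 0.04 in E8w1B, against -0.25, -0.71, -0.57, -0.30 and -0.33 in E8w and -0.25, -0.45, -0.62 and -0.31 in P8w, with replicate 1 again among the other groups. It was 0.51 ± 0.16 higher against P8w (0.0327) and 0.53 ± 0.15 against E8w (0.0173). With slide in the fit neither passed (0.0734 and 0.0555), and against P8w Loxl1 did not pass with median centring (0.0547), fitted on these 2 groups only (0.105), or without E8w1B replicate 2 (0.0517), E8w1B replicate 3 (0.103), P8w replicate 2 (0.0717) or P8w replicate 3 (0.113).

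The cytoskeletal genes of stellate cells did not move together. Des, the intermediate filament desmin that marks rodent stellate cells, was 0.27 higher in E8w1B than in E8w (adjusted p 0.017), with 0.05, -0.02, 0.07, 0.06 and 0.29 against -0.31, -0.13, -0.08, -0.09 and -0.27, and the groups did not overlap. Vim, the mesenchymal filament vimentin, was 0.49 higher (0.0229), with -0.39, 0.50, 0.59, 0.27 and 0.15 against -0.20, -0.25, -0.31, -0.14 and -0.42. Acta2, smooth muscle actin and the usual mark of an activated stellate cell (chr19:34240336-34255585), read lower on the probe used, -0.18, -0.27, -0.30, -0.14 and -0.37 in E8w1B against 0.01, 0.55, 0.41, 0.59 and 0.81 in E8w, with no overlap. That difference was -0.73 ± 0.13 (SE, adjusted p 0.000494), but Acta2 had no settled direction, since its brightest probe read the opposite way. With marked spots kept, the brightest probe read 0.63, 0.57, 0.47, 0.17 and 0.68 in E8w1B against -0.22, -0.13, -0.25, -0.42 and -0.33 in E8w, again with no overlap, and a difference of 0.77 (0.000425). The dimmest of its probes differed by 0.06 (0.774). Col18a1, the basement membrane collagen that gives rise to endostatin, was also lower in E8w1B, with a difference of -0.30 (0.0107) and values of -0.39, -0.58, -0.56, -0.35 and -0.34 against -0.08, -0.12, -0.28 and -0.11 on 4 arrays of E8w, which did not overlap.

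**Figure D3:**
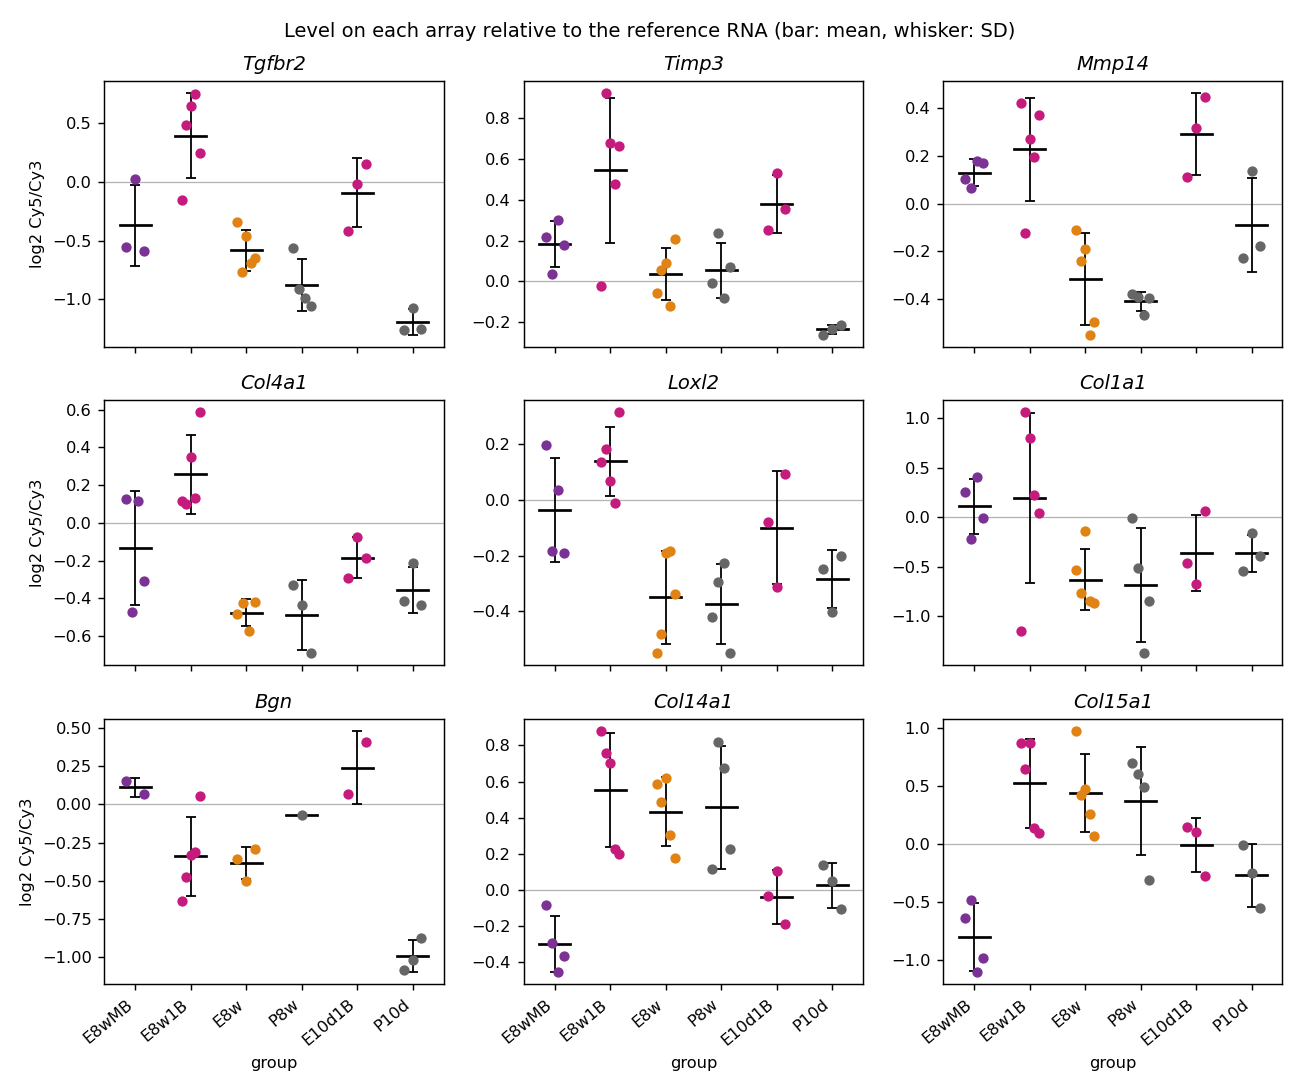
Level of 9 genes (1 panel each) as log2 Cy5/Cy3 on each array (points) in the 6 groups (horizontal axis), with the mean as a bar and the SD as a whisker. Tgfbr2, Col4a1 and Loxl2 of E8w1B lie above all arrays of E8w and P8w, Col1a1 of E8w1B spans -1.14 to 1.06, and Col14a1 and Col15a1 of E8wMB lie below all arrays of the other groups fed for 8 weeks.

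After 10 days of ethanol and 1 binge, the called genes were the receptor Tgfbr2, the inhibitor Timp3 and 2 small leucine-rich proteoglycans, Bgn and Dcn, which decorate collagen fibrils. The median difference over the 32 tested genes was 0.16, beside -0.00 over all genes, and 20 of the 32 differences were positive. Tgfbr2 read -0.42, -0.02 and 0.16 in E10d1B, against -1.26, -1.07 and -1.25 in P10d, with no overlap and a difference of 1.1 ± 0.20 (SE, adjusted p 0.00132). Timp3 read 0.25, 0.53 and 0.35 against -0.26, -0.23 and -0.21, a difference of 0.61 ± 0.15 (0.0148). Both were higher on 2 of 2 slides that held both groups, and with slide in the fit both passed (0.0158 and 0.0376). The second probe of Tgfbr2 differed by 0.24 here and did not pass (0.505).

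Bgn, biglycan (chrX:73483601-73495936), had the largest difference of the set in this comparison. It read 0.07 and 0.41 on the 2 unmarked arrays of E10d1B, against -1.08, -1.02 and -0.88 in P10d, with no overlap. The difference was 1.24 ± 0.17 (SE, adjusted p 0.000247), and 1.29 (0.0268) with slide in the fit. Its spot was marked on 8 of 24 arrays. Dcn read 0.02, 0.24 and 0.24 in E10d1B, against -0.83, -0.19 and -0.37 in P10d, with no overlap and a difference of 0.63 ± 0.16 (0.0221), which with slide in the fit did not pass (0.0904). Sparc and Acta2 had the largest differences that did not pass, 0.61 ± 0.21 (0.0879) and -0.50 ± 0.17 (0.0856). The second probe of Sparc passed, at 0.93 (0.00241), and the brightest probe of Acta2, with marked spots kept, read 0.41, 0.60 and 0.30 in E10d1B against -0.76, -0.09 and -0.44 in P10d, a difference of 0.86 (0.00456) opposite to the probe used.

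Arrays of this comparison are few, and single ones moved the calls. The count of called genes was 2 without E10d1B replicate 2, E10d1B replicate 3 or P10d replicate 1. Timp3 did not pass without E10d1B replicate 2 (adjusted p 0.0945) or P10d replicate 1 (0.0584), and Dcn did not without E10d1B replicate 2 (0.0989), E10d1B replicate 3 (0.078) or P10d replicate 1 (0.137). With median centring neither passed (Timp3 0.106, Dcn 0.369), and Dcn did not in Cy5 alone (0.087) or with the scanner software's ratio (0.119). Without E10d1B replicate 1, Sparc (0.79, 0.0334) and Acta2 (-0.69, 0.0162) passed.

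Over the 3 comparisons of a single binge with a group without one, Tgfbr2 and Timp3 were called higher in all 3, and Col1a2, Col4a1, Mmp14, Loxl1 and Loxl2 in 2. Of the other tested genes, 7 were called higher in 1 comparison and 20 in none, among them Col18a1, Acta2 and Tgfbr1, called lower against E8w. The comparisons with P8w and with E8w share the E8w1B arrays, so repeated calls there are not independent. How many of all genes were called as often was not counted. The change from pair feeding with ethanol and 1 binge differed between 8 weeks and 10 days for 2 of 31 genes, 1 higher and 1 lower. Of all genes, 3.35% were called (0.939% higher and 2.41% lower). No group had 10 days of ethanol without a binge, so ethanol and binge cannot be told apart there. The value tested was the difference of the differences (E8w1B minus P8w, less E10d1B minus P10d). For Col5a2 this value was 0.56 ± 0.13 (SE, adjusted p 0.0138), made of 0.29 at 8 weeks and -0.28 at 10 days, where E10d1B read -0.10, -0.13 and -0.19 against 0.22, 0.21 and -0.03 in P10d. For Tgfbr1 it was -0.53 ± 0.13 (0.0259), made of -0.24 at 8 weeks and 0.29 at 10 days, where E10d1B read 0.29, 0.10 and -0.04 against -0.05, -0.32 and -0.15. Neither passed with slide in the fit (0.126 and 0.176), with median centring (0.243 and 0.602) or in Cy5 alone (0.351 and 0.0702). Col5a2 did not pass without P10d replicate 2 (0.0502), nor Tgfbr1 without P8w replicate 4 (0.0583), P10d replicate 2 (0.1), E10d1B replicate 1 (0.0945) or E10d1B replicate 2 (0.0507), and without P10d replicate 2 the count was 0. For Col1a1 the value was 0.87 ± 0.49 (0.402) and for Col4a1 0.57 ± 0.20 (0.137).

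Ethanol for 8 weeks without a binge showed no called gene of the set against P8w. The median difference over 33 genes was 0.01, the same as over all genes, and 2 of the 33 had an unadjusted limma p under 0.05, Acta2 and Vim. The count was 0 in all 15 other settings tried. Vim, at -0.20, -0.25, -0.31, -0.14 and -0.42 in E8w against 0.29, 0.14, -0.23 and 0.06 in P8w, had a difference of -0.33 ± 0.16 (SE, adjusted p 0.661), with overlap. Col3a1, the second fibrillar collagen of liver, differed by -0.32 ± 0.19 (0.819). A p above the threshold does not show that these levels were alike. The 2 pair-fed groups also had 0 of 31 genes called, beside 1.53% of all genes (1.05% higher and 0.482% lower), with 9 at an unadjusted p under 0.05, and other settings gave 0 to 6. Here the largest differences were in Col15a1 (P8w minus P10d 0.64 ± 0.24, 0.187), which passed without P8w replicate 4 (0.87, 0.0395), and in Tgfb1 (0.48 ± 0.14, 0.092).

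Against the other groups fed for 8 weeks, E8wMB had low readings of 2 non-fibrillar collagens. Col15a1, a collagen at the outer face of basement membranes (chr4:47207655-47313167), read -0.64, -0.49, -1.11 and -0.98 in E8wMB. It read 0.87, 0.65, 0.87, 0.14 and 0.09 in E8w1B, 0.98, 0.42, 0.47, 0.26 and 0.07 in E8w, and 0.70, 0.61, 0.49 and -0.31 in P8w. Every E8wMB array was below every array of these groups. The 10-day groups, read in the second scan, had -0.01, -0.25 and -0.55 in P10d and 0.15, 0.10 and -0.27 in E10d1B. Of these, P10d overlapped E8wMB. The difference was -1.33 ± 0.21 (SE, adjusted p 0.000125) against E8w1B, -1.24 ± 0.21 (0.000323) against E8w and -1.18 ± 0.22 (0.0011) against P8w. In Cy5 alone it was -1.01, -0.98 and -0.71, and the Cy3 differences of 0.32, 0.26 and 0.46 did not pass. The second probe of Col15a1 did not follow: it read 0.27, 0.19 and 0.22 higher (0.122, 0.319 and 0.293).

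Col14a1, a collagen that attaches to the surface of fibrils (chr15:55307644-55520803), read -0.08, -0.29, -0.45 and -0.36 in E8wMB, against 0.88, 0.76, 0.70, 0.23 and 0.20 in E8w1B, 0.59, 0.49, 0.62, 0.30 and 0.18 in E8w, and 0.12, 0.82, 0.68 and 0.23 in P8w. Again E8wMB did not overlap these groups. The 10-day groups read 0.14, 0.05 and -0.11 in P10d and -0.03, 0.11 and -0.19 in E10d1B, and both overlapped E8wMB. The difference was -0.85 ± 0.15 (SE, adjusted p 0.000307) against E8w1B, -0.73 ± 0.15 (0.00142) against E8w and -0.76 ± 0.16 (0.00215) against P8w, and the Cy5 channel alone gave -0.89, -0.72 and -0.79. The second probe passed against P8w (-0.66, 0.00126) and not against E8w (-0.29, 0.0888) or E8w1B (-0.07, 0.726). Col3a1 had 2 unmarked arrays in E8wMB, -0.10 and -0.58, and differed by -0.81 ± 0.21 (0.00912) from E8w1B and by -0.79 ± 0.22 (0.0199) from P8w, but its dimmer second probe differed by 0.19 and 0.17 in the other direction (0.23 and 0.354), and with the mean of probes neither passed (-0.12, 0.572, and -0.14, 0.542). Against P8w, Col3a1 did not pass without P8w replicate 1 (-0.62, 0.0654).

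The genes called higher in E8wMB include Mmp14 and Loxl2. Mmp14 read 0.10, 0.06, 0.18 and 0.17, above every array of E8w and P8w, with differences of 0.45 ± 0.11 (SE, adjusted p 0.00484) and 0.54 ± 0.11 (0.00236). Its Cy3 signal differed by 1.56 and 1.36 between the same arrays, more than the ratio did, and its brighter probe, with marked spots kept, differed by -0.26 and -0.16 (0.14 and 0.429). With median centring Mmp14 did not pass against E8w (0.23, 0.224) or P8w (0.32, 0.103). Loxl2 was higher than in P8w by 0.34 ± 0.11 (0.0338) and than in E8w by 0.31 ± 0.10 (0.0317), and with median centring it passed in neither (0.11, 0.512, and 0.08, 0.629), nor with the scanner software's ratio (0.47, 0.0624, and 0.38, 0.108). Against P8w this was lost without E8wMB replicate 1 (0.124), E8wMB replicate 3 (0.0839), P8w replicate 1 (0.0643), P8w replicate 2 (0.0522) or P8w replicate 4 (0.103), and against E8w without E8wMB replicate 1 (0.128), E8wMB replicate 3 (0.086), E8w replicate 1 (0.0904) or E8w replicate 2 (0.077).

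Against E8w, 4 further genes passed. Acta2 differed by -0.50 ± 0.14 (SE, adjusted p 0.0132), at 0.03, 0.26, -0.27 and -0.13 in E8wMB, and its brightest probe, with marked spots kept, differed by 0.33 in the other direction (0.101). Des read 0.11, 0.10, 0.09 and 0.05 in E8wMB and was 0.26 ± 0.08 higher with no overlap (0.0191), but the difference was -0.11 in Cy5 alone and -0.38 in Cy3 (0.00216). Bgn, on 2 unmarked arrays of E8wMB at 0.16 and 0.07 against -0.36, -0.50 and -0.29 on 3 of E8w, was 0.50 ± 0.17 higher (0.0392), with -0.48 in Cy5 alone and -0.98 in Cy3. Col6a2, a chain of the microfibrillar collagen VI, was 0.33 ± 0.12 higher (0.0438), at 0.20, -0.16, 0.15 and 0.05 against -0.27, -0.32, -0.29, -0.43 and -0.04, with 0.04 in Cy5 alone. With median centring Des (0.08, 0.552) and Bgn (0.34, 0.343) did not pass. Acta2 did not pass without E8wMB replicate 3 (0.0586), Des without E8w replicate 1 (0.056), or Bgn without E8w replicate 1 (0.0712) or E8w replicate 3 (0.106). Col6a2 did not pass without E8wMB replicate 1 (0.122), 3 (0.113) or 4 (0.076), or without E8w replicate 1 (0.0715), 2 (0.08), 3 (0.0715) or 4 (0.0945). The count against E8w ran from 4, without E8wMB replicate 3 or E8w replicate 1, to 11 without E8wMB replicate 2.

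Set against E8w1B, the E8wMB arrays had lower ratios of Tgfbr2, Pdgfrb, Col4a1, Mmp2 and Timp3. Scan and binge pattern cannot be told apart here, and not all of these genes were lower in Cy5 alone. The median difference over the 33 genes was -0.14, beside -0.01 over all genes, and 9 of 33 differences were positive, beside 48.7% of all genes. Tgfbr2 read -0.55, 0.03 and -0.59 on 3 arrays of E8wMB and differed by -0.77 ± 0.18 (SE, adjusted p 0.0032) from E8w1B, with overlap. In Cy5 alone the difference was -0.18 (0.433), and Cy3 differed by 0.58. The scanner software's ratio gave -0.49 for Tgfbr2, which did not pass (0.0824). Col4a1, at 0.12, -0.47, 0.12 and -0.31 in E8wMB, differed by -0.39 ± 0.12 (0.021), and by -0.78 (0.000385) in Cy5 alone. It did not pass with the scanner software's ratio (-0.34, 0.0883) or with the deposited values (-0.34, 0.0717). Pdgfrb, at 0.10, -0.14, 0.10 and -0.26 against 0.01, 0.51, 0.58, 0.23 and 0.47, differed by -0.41 ± 0.13 (0.0188). Mmp2, the gelatinase that Mmp14 activates, differed by -0.29 ± 0.10 (0.0301) and Timp3 by -0.36 (0.0358), but in Cy5 alone they read 0.17 and 0.94 higher, with Cy3 0.46 and 1.30 higher. Col18a1 was 0.24 ± 0.08 higher (0.029) and Bgn 0.45 higher (0.0357), and in Cy5 alone they differed by -0.29 and -0.51. With median centring Col18a1 (0.382) and Mmp2 (-0.15, 0.409) did not pass, and Pdgfrb did not in Cy5 alone (-0.39, 0.125). Fitted on these 2 groups only, Col4a1 (0.0868), Col18a1 (0.07) and Mmp2 (0.0947) did not pass.

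Single arrays ended several of these calls. The count was 3 without E8wMB replicate 4. Pdgfrb did not pass without E8wMB replicate 2 (adjusted p 0.0549), E8wMB replicate 4 (0.0848) or E8w1B replicate 3 (0.0539). Col4a1 did not without E8wMB replicate 2 (0.103), E8wMB replicate 4 (0.0838) or E8w1B replicate 5 (0.0566). Col18a1 did not without E8wMB replicate 3 (0.074) or 4 (0.0887), or E8w1B replicate 2 (0.0724) or 3 (0.0718), and Mmp2 did not without E8wMB replicate 2 (0.139) or 4 (0.0859), or E8w1B replicate 1 (0.066), 2 (0.055) or 3 (0.0844). Without E8w1B replicate 1, 9 of 33 genes were called, beside 23.7% of all genes, and Vim was among them (-0.45, 0.0176). The count against P8w ran from 3 without E8wMB replicate 1 to 7 without E8wMB replicate 2 or P8w replicate 1, and without P8w replicate 1 Col1a1 (1.02, 0.0374) and Tgfbr2 (0.61, 0.0306) passed there. Both also passed there with the scanner software's ratio (1.21, 0.0404, and 0.91, 0.00667), and Tgfbr2 in Cy5 alone (1.11, 6.87e-05).

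Several well-known members showed no call in any comparison. Spp1, osteopontin, spread from -0.66 to 1.09 over the 5 arrays of E8w1B, with -0.40 ± 0.25 (SE, adjusted p 0.247) as its difference between E8wMB and E8w1B. Col1a1 had group means from -0.68 ± 0.57 (SD, n = 4) in P8w to 0.20 ± 0.86 (SD, n = 5) in E8w1B, which overlap. Lum and Thbs1, a keratan sulfate proteoglycan and an activator of latent transforming growth factor beta, had group means that differed by at most 0.24 and 0.29. Postn, a matricellular protein of fibrotic tissue, ran from -0.37 ± 0.04 in P10d to 0.05 ± 0.16 in E8w1B, and Tgfb1 from -0.40 ± 0.18 in P10d to 0.23 ± 0.09 in E8wMB. Mmp2, unlike these genes, was called, in E8wMB against E8w1B, but its probe was well above background on only 12 of 24 arrays. It was not so on any array of E10d1B or P10d, so no fold is given for it there.

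The wider matrix and growth factor pathway, 143 other genes in 6 lists, had calls in both directions. In E8w1B against P8w 11 of 131 tested genes were higher and 9 lower, beside 7.53% and 8.68% of all genes, and against E8w 17 of 132 were higher and 7 lower, beside 8.03% and 8.39%. Tgm2, a transglutaminase that crosslinks matrix proteins, rose by 1.89 ± 0.23 (SE, adjusted p 5.26e-06) and 1.71 ± 0.21 (8.42e-06). Nid1, the nidogen that ties laminin to collagen IV, rose by 1.82 ± 0.26 (4.04e-05) and 1.91 ± 0.24 (1.15e-05), and Col5a3, a chain of collagen V, fell by 1.39 against P8w (1.74e-05). Col13a1, a membrane collagen, rose by 0.57 against E8w (0.000131). Of the 14 target genes of transforming growth factor beta in these lists, 1 was higher and 1 lower against P8w, and 2 were higher and 1 lower against E8w.

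In E10d1B against P10d 9 of 131 pathway genes were higher and 2 lower, beside 4.32% and 2.9% of all genes. Tgm2 rose by 1.39 ± 0.28 (SE, adjusted p 0.00254), Inhbe, an activin subunit made in hepatocytes, by 1.43 ± 0.25 (0.00255), and Plod3, a collagen lysyl hydroxylase, by 0.62 ± 0.11 (0.000832). Plod3 did not pass there with median centring (0.62, 0.0604) or in Cy5 alone (0.59, 0.054). In E8wMB 12 were higher and 18 lower of 129 against P8w, 20 and 19 of 129 against E8w, and 13 and 21 of 128 against E8w1B. All genes had 8.02% and 12.5%, 10.2% and 14.7%, and 12% and 17.4% in these comparisons. Fbn1, the microfibril protein fibrillin, fell, with differences of -1.53, -1.47 and -1.28 from E8w1B, E8w and P8w (0.000125, 0.00027 and 0.00169), and Tnc, tenascin C, fell, with differences of -0.92 and -0.83 from E8w1B and E8w (0.000109 and 0.00041). Adamts2, which trims procollagen, fell by 0.55 against E8w1B (0.000193) and by 0.22 in Cy5 alone, which did not pass (0.233). Plod3 was 0.50 higher against E8w (0.000517), but did not pass with median centring (0.29, 0.137). In Cy5 alone Plod3 passed in the other direction (-0.61, 0.000606). Against P8w, Itga5, a fibronectin receptor chain, rose by 0.93 (0.000192), with 0.29 in Cy5 alone, which did not pass (0.165), and Col5a3 fell by 0.97 (0.00158). In E8w against P8w 0 of 132 passed, and in P8w against P10d 3 of 131, all higher, beside 1.05% of all genes, among them Plod3 at 0.43 (0.0337), which did not pass without any of 5 arrays.

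The test of 8 weeks against 10 days called 7 of 130 pathway genes, all lower, beside 2.41% of all genes. Tgfbi, a matrix protein induced by transforming growth factor beta, had a difference of differences of -0.95 ± 0.17 (SE, adjusted p 0.00207), Inhba, an activin subunit, of -1.66 ± 0.33 (0.00363), and Plod3 of -0.71 ± 0.14 (0.00481). With slide in the fit none of these 3 passed (0.0613, 0.136 and 0.101), and with median centring Tgfbi and Plod3 did not (0.172 and 0.239).

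Markers of liver cell types moved unevenly beside these results. Of 14 hepatic stellate cell markers, 2 were higher and 4 lower in E8w1B against P8w, 3 and 3 against E8w, and 2 higher (Lrat and Rgs5) and 0 lower in E10d1B against P10d. The shares of all genes called higher and lower were 7.53% and 8.68%, 8.03% and 8.39%, and 4.32% and 2.9% in these comparisons. Their mean ratio per array ran from -0.24 to 0.09 in E8w1B, against -0.28 to -0.07 in E8w and -0.07 to 0.11 in P8w. It ran from -0.08 to 0.07 in E10d1B, against -0.31 to -0.11 in P10d. Of 9 sinusoidal endothelial markers, 4 were higher in E10d1B than in P10d (Clec4g, Fcgr2b, Lyve1 and Stab1), and their mean ratio per array ran from 0.05 to 0.19 in E10d1B against -0.50 to -0.32 in P10d. In E8w1B against P8w 2 endothelial markers were higher and 3 lower, and of 8 neutrophil markers S100a8 and S100a9 were higher. Against P8w, E8wMB had 2 of the stellate markers lower (Gfap and Reln) and 0 higher, with 3 higher and 1 lower against E8w and 1 higher and 4 lower against E8w1B. The shares of all genes called higher and lower there were 8.02% and 12.5%, 10.2% and 14.7%, and 12% and 17.4%. The summed Cy5 signal of the unmarked stellate markers ran from 12454 to 38597 in E8w1B, 9329 to 47440 in E8w and 6068 to 18006 in P8w, and from 8695 to 33829 in E10d1B against 32363 to 42246 in P10d. That of the endothelial markers ran from 5405 to 5974 in E10d1B against 3817 to 4034 in P10d. A marker whose spot was marked on an array adds nothing to that array's sum. These sums therefore depend on which spots were marked and do not measure marker level alone. Of the defining markers, S100a8 was well above background on 11 of 24 arrays, and Lrat, Reln, Hand2, Thy1, Myh11, Krt19, Stab2, Clec4f and Alb on all 24. The part of these markers in the results for matrix genes was not tested.

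Different probes of a gene often disagreed. Of the set, 17 genes had more than 1 probe, which gives 21 pairs of the probe used and another, and 19 pairs shared at least 10 arrays. Pearson's r over those arrays, which share the reference and the normalization, ran from -0.74 to 0.91 with a median of 0.43. It was over 0.8 in 3 pairs, of Col4a1 (0.91), Sparc (0.89) and Col18a1 (0.89), under 0.5 in 11 and negative in 4. The negative pairs were 2 of Acta2 (-0.74 and -0.28), Col15a1 (-0.29) and Tgfbr1 (-0.03), so the falls of these genes rest on 1 probe each. Col3a1 (0.05), Col4a2 (0.24), Timp1 (0.25), Col14a1 (0.28) and Mmp14 (0.39) were low as well, and Tgfbr2 (0.71) and Col1a1 (0.80 in both pairs) were high.

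**Figure D4:**
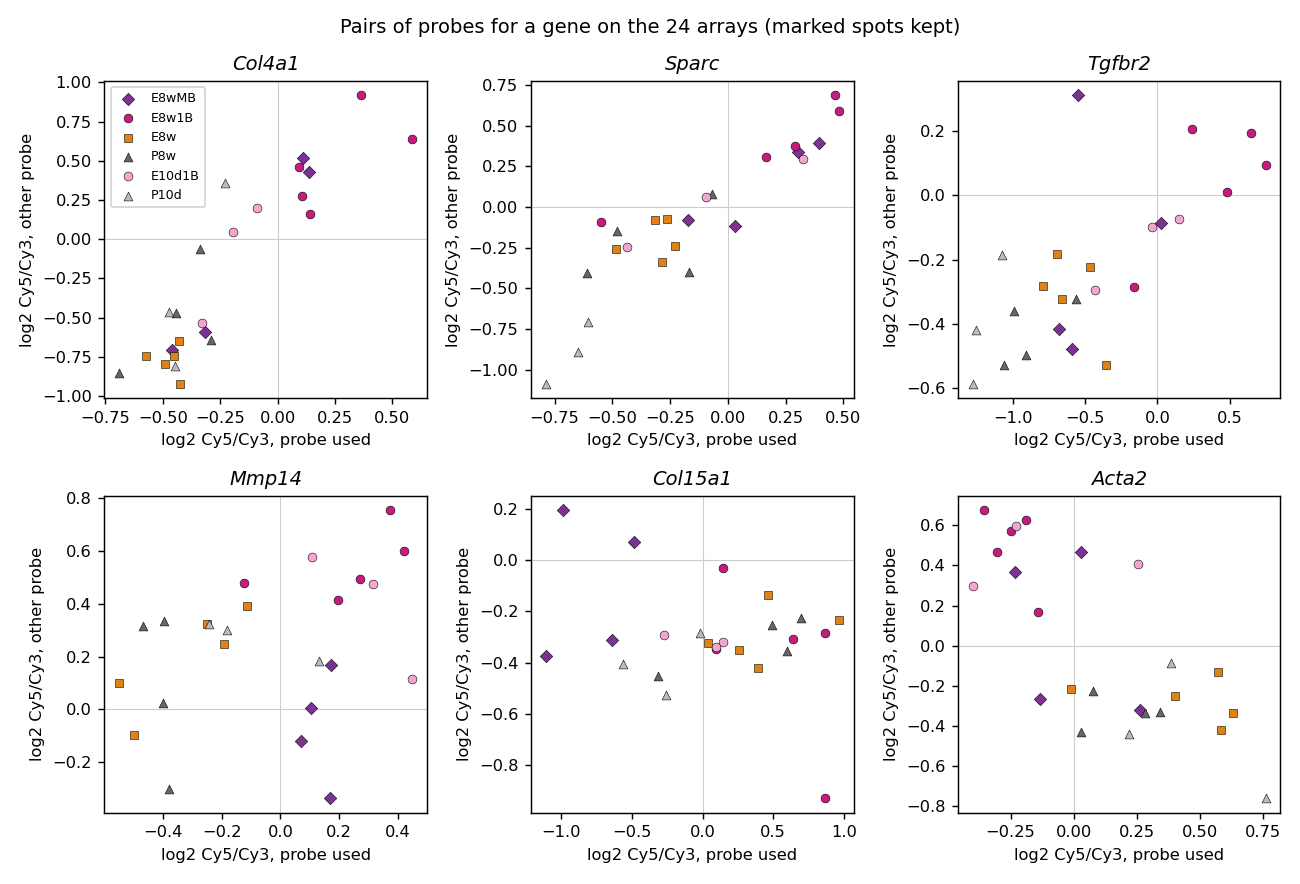
Log2 Cy5/Cy3 of the probe used (horizontal axis) against another probe of the same gene (vertical axis) on the 24 arrays, coloured by group and with marked spots kept. The points of Col4a1 and Tgfbr2 run upward, with r of 0.91 and 0.71 over unmarked spots, and those of Acta2 run downward, with r of -0.74.

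Abundant matrix transcripts lost many spots to the software's marks for uneven or outlying spots. The 3 probes of Fn1, from the brightest to the dimmest, were marked on 21, 17 and 9 of 24 arrays, the brightest of Acta2 on 13, that of Mmp14 on 10, that of Bgn on 8, and those of Col3a1, Col4a2 and Timp2 on 7 each. With the marked spots kept, these Fn1 probes read 0.59, 0.91 and 0.60 higher in E10d1B than in P10d (limma adjusted p 0.0451, 0.00639 and 0.0676). In E8w1B against P8w they differed by 0.10, 0.05 and 0.54, of which the last passed (0.0223). Without marked spots the dimmest probe had at least 2 arrays in each group but P8w, and differed by 0.59 (0.0967) in E10d1B against P10d, 0.23 (0.465) in E8w1B against E8w, -0.04 (0.904) in E8wMB against E8w and -0.27 (0.308) in E8wMB against E8w1B. Dcn, marked on 6 arrays, had 1 value left in E8wMB and was not tested there.

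**Figure D5:**
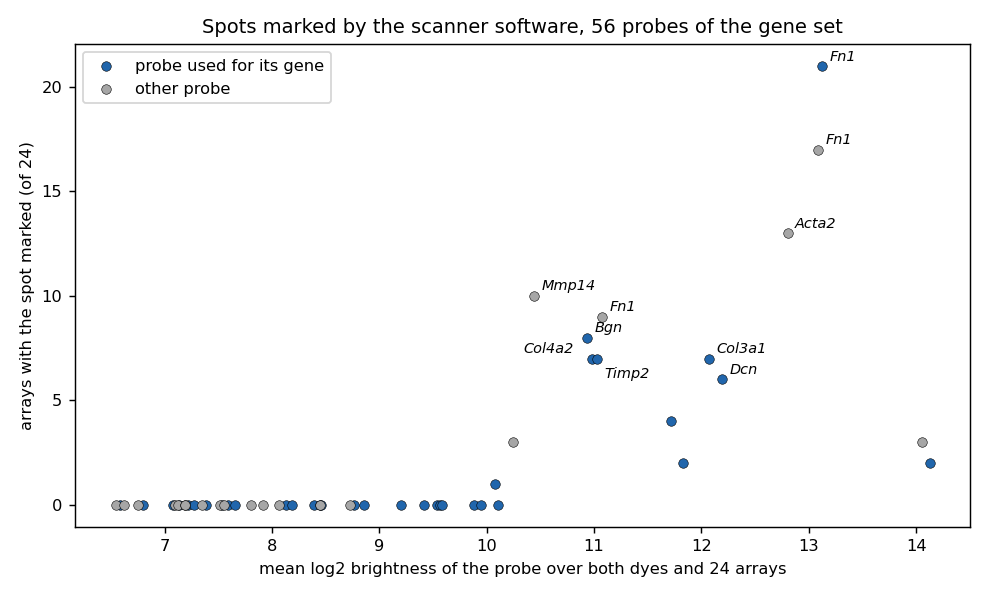
Number of arrays, of 24, on which a probe's spot was marked by the scanner software (vertical axis) against the probe's mean log2 brightness over both dyes (horizontal axis), 1 point for each of 56 probes. Marked spots gather among bright probes, up to 21 of 24 arrays for 1 probe of Fn1.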

How the data were processed

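Median spot and background intensities of both channels came from the deposited scanner files, made with Agilent Feature Extraction 11.5.1.1 per the submitters' processing notes. Per the file headers, the same software gave processed intensities and a log10 ratio of Cy5 over Cy3. The deposited table of log2 values followed the log2 ratio of processed intensities with a slope of 1.00, and how it was made is not given in the sources used here.

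In limma 3.58.1, normexp with an offset of 50 removed the background and loess was run within arrays (under R 4.3.3, statmod 1.5.0, jsonlite 2.0.0 and version 1.17.8 of data.table). Spots marked as non-uniform or population outliers were left out (1.52% to 7.78% of an array), and spots of 245 replicated probes averaged. A probe was kept if its Cy5 spot exceeded background clearly on 3 arrays or more, as 36648 of 41174 did, and 22970 of these had a symbol through their unversioned RefSeq accession in the table for GRCm38.p6, for 16158 genes. A gene was read from its brightest probe, among those with 2 or more arrays in every group where it had such a probe. limma fitted 6 group means over 24 arrays, and 9 comparisons were adjusted over all genes with 2 or more arrays in both groups. Promoter windows and gene positions come from RefSeq (GRCm38.p6), and 24 of 35 genes had a window. The code was tested on simulated data.

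In each comparison full statistics were to be given for up to 8 called members by adjusted p, the 2 largest other differences, and up to 3 called pathway genes. Promoters and single marker genes were chosen after their values were seen. The members and lists were chosen with earlier results of these data known. The replicate numbers in the labels were not used to pair the samples in the main fit. The lowest correlation between same-numbered arrays of 2 groups was under 0.1 in each comparison, at most 0.084. Its mean over same-numbered arrays ran from -0.13 to 0.16 by comparison, beside -0.08 to 0.04 over other pairs. With so few pairs, and with slides shared by some of them, these values cannot settle whether the numbers pair the samples. Alternatives covered normalization, source of the ratio, dim probes, marked spots, probe choice, slide, array weights, replicate number, the groups fitted and each array left out. Keeping marked spots with the same probe was added after seeing the data.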

Additional observations from a re-analysis of the deposited data

Results flagged for a closer look

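Among groups of 4 to 5 measured arrays, 121 pairs of gene and group were scanned for a single array far from the rest of its group, and 4 stood out, where chance alone would mark about 1 in 20. Col3a1 read 0.47 on E8w replicate 1, against -0.01 to 0.05 on the other 3 arrays measured. Timp2, a metalloproteinase inhibitor that also takes part in activating Mmp2, read 0.19 on E8w1B replicate 1, against 0.34 to 0.39 on the other 4. Tgfb1 read -0.47 on the same array, against 0.12 to 0.34. Des read 0.29 on E8w1B replicate 5, against -0.02 to 0.07.

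For 2 genes the change from pair feeding with ethanol and 1 binge differed between 8 weeks and 10 days in limma's test of the difference of differences. The value was 0.56 for Col5a2 and -0.53 for Tgfbr1, and their limits are given with the results.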

How the results depend on the processing

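Counts of called matrix and stellate genes depended on the setting as follows. Median centring gave 2 for E10d1B against P10d (main value 4), 5 for E8w1B against P8w (9) and 5 for E8wMB against E8w (8). It gave 0 for the difference of the changes of E8w1B from P8w and of E10d1B from P10d (2). In Cy5 alone the counts were 5 for E8w1B against P8w and 8 against E8w (13), 19 for E8wMB against P8w (5), 18 against E8w and 19 against E8w1B (10), 6 for P8w against P10d (0) and 0 for the difference of changes. The scanner software's ratio gave 9 for E8wMB against P8w and 1 for the difference of changes, and the deposited values 9 for E8wMB against P8w and 1 for P8w against P10d. Array weights gave 7 for E10d1B against P10d, 8 for E8wMB against P8w and 1 for P8w against P10d. Fitting only the compared groups gave 5 for E8wMB against E8w1B and 1 for the difference of changes. Slide as a random block gave 14 for E8w1B against P8w, and as a fixed block 0 for the difference of changes. For P8w against P10d, marked spots kept gave 1, also with the same probe, the mean of probes 1 and every probe as a feature 2. With the replicate number as a block, the count was 4 for P8w against P10d, and the other counts were 4 for E10d1B, 0 for E8w, 7 and 13 for E8w1B, 5, 8 and 10 for E8wMB and 2 for the difference. Some same-numbered arrays also share a slide, and the cause of these shifts was not tested.

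Leaving out 1 array at a time, the counts ran from 2 to 6 for E10d1B against P10d, 6 to 12 for E8w1B against P8w, 10 to 19 against E8w, 3 to 7 for E8wMB against P8w, 4 to 11 against E8w, 3 to 10 against E8w1B, 0 to 1 for P8w against P10d and 0 to 2 for the difference of changes. For E8w against P8w it was 0 each time.

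Reversed differences were Acta2 in E10d1B against P10d (0.86 with marked spots kept and 0.0643 as the mean of probes), in E8w1B against E8w (0.77, marked spots kept) and in E8wMB against E8w (0.33, marked spots kept), and Mmp14 in E8wMB against P8w (-0.16) and E8w (-0.26), both with marked spots kept. In Cy5 alone they were Des (-0.11), Bgn (-0.48) and Plod3 (-0.61) in E8wMB against E8w, and Col18a1 (-0.29), Mmp2 (0.17), Timp3 (0.94), Bgn (-0.51) and Spp1 (0.11) against E8w1B. Marked spots kept brings in another probe of Acta2 and Mmp14, and Cy5 alone leaves out the reference channel, which differed between the scans.

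Over all genes, median centring called 367 in E10d1B against P10d (1132 in the main setting), 1216 in E8w1B against P8w (2550) and 1324 against E8w (2602), and 154 for the difference of changes (518). Cy5 alone called 7740, 8168 and 8134 in E8wMB against P8w, E8w and E8w1B (3156, 3850 and 4570). Signal near background limits Mmp2, and marked spots limit Fn1, Bgn, Dcn, Col3a1 and Timp2.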
